A study of Mus musculus with 2 samples.

Results

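Expression of 35 genes of glycolysis, the pentose phosphate pathway and the response to low oxygen was examined in resident lung macrophages of mice infected with a migrating worm. The genes were a fixed list of names, matched to the name column of the deposited expression table. All 35 were found among its 38293 genes. In role they were 5 genes of glucose entry, 7 of the upper part of glycolysis, 5 of the lower part, 5 of pyruvate and lactate handling, 5 of the pentose phosphate pathway and 8 of the hypoxia response.

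Glycolysis splits glucose into pyruvate in the cytosol and yields ATP without oxygen, and pyruvate is then reduced to lactate or passed to mitochondria. The pentose phosphate pathway branches off at glucose 6-phosphate and supplies NADPH and ribose. Hif1a encodes the oxygen-regulated subunit of hypoxia-inducible factor (HIF), which prolyl hydroxylases mark for breakdown when oxygen is present and which otherwise induces many glycolytic genes. In macrophages, glycolysis is known to be raised by inflammatory stimuli, whereas alveolar macrophages live in air-filled, glucose-poor spaces and are known to burn much lipid.

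The cells came from 8-week-old C57BL/6 mice, each given 625 third-stage larvae of Nippostrongylus brasiliensis under the skin, a roundworm that passes through the lung. Leukocytes were taken from the lungs on day 7 after infection and sorted as CD45+CD11chiSiglecF+CD11blo cells, the surface pattern of alveolar macrophages. The groups were Axl-/-Mertk-/- mice and wild-type (WT) mice, both infected, with 1 library each, so the comparison asks how macrophage transcripts differ during infection where the receptor kinases Axl and Mertk, sensors of apoptotic cells, are missing. The labels name no promoter or Cre for the deletions, do not give the deleted exons, and do not give the number of mice behind a library. No difference has a replicate check, since each genotype has 1 library, and each value compares these 2 libraries, not the genotypes.

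Reads counted in genes numbered 15519680 in the Axl-/-Mertk-/- library and 15282882 in the WT library. Values are the deposited normalised reads, in which 1 read is worth 1.18 in the Axl-/-Mertk-/- library and 1.21 in the WT library. A gene is called measured when it averaged at least 20 normalised reads over both libraries, which held for 11795 genes. Of the targeted genes, Axl had 3851 normalised reads in the Axl-/-Mertk-/- library and 24789.8 in the WT library, and Mertk had 2842 in the Axl-/-Mertk-/- library and 6484 in the WT library, where reads from exons left in place would be counted too. All 13 alveolar macrophage markers in the table were measured in both libraries, Siglecf among them with 2347 normalised reads in the Axl-/-Mertk-/- library and 2566 in the WT library, and 12 of the 13 were lower in the Axl-/-Mertk-/- library. Their pooled ratio, Axl-/-Mertk-/- over WT from summed reads, was 0.866, with an exact 95% counting interval of 0.864 to 0.869. It rests mostly on 1 marker, which gave 842710 of the 974174 reads in the Axl-/-Mertk-/- library and 958064 of 1099984 in the WT library. Single ratios of the 13 ran from 0.748 to 1.02, with a median log2 ratio of -0.18. Of markers of monocytes and interstitial macrophages, 9 of 10 were higher in the Axl-/-Mertk-/- library, with summed levels of 19139 normalised reads there and 16475 in the WT library. In the Axl-/-Mertk-/- and the WT library, red cell markers summed to 754 and 249. Neutrophil markers summed to 3252 and 2864, with Ly6g and Camp at 1 and 0 reads each. For the other types the sums in the Axl-/-Mertk-/- and the WT library were 4731 and 4534 for endothelium, 8955 and 10245 for lung epithelium, 1679.7 and 1528 for dendritic cells, 366 and 402 for B cells, 316 and 229 for T cells and 76.7 and 82.1 for eosinophils, whose marker Epx had 0 and 1 reads. The endothelial sum was made up mostly by 1 marker, at 3053 in the Axl-/-Mertk-/- library and 3339 in the WT library, whereas 8 of the 9 measured endothelial markers were higher in the Axl-/-Mertk-/- library, 6 by 1.5-fold or more, and the log2 ratios of the 9 had a median of 0.86. Most of the lung epithelial sum came from 1 marker too, at 5916 in the Axl-/-Mertk-/- library and 6692 in the WT library. Measured markers that were higher in the Axl-/-Mertk-/- library numbered 5 of 5 for red cells, 5 of 8 for neutrophils, 3 of 8 for lung epithelium, 5 of 6 for dendritic cells, 4 of 4 for T cells, 0 of 4 for B cells and 0 of 2 for eosinophils. In bulk RNA, fewer cells of a type and less RNA per cell cannot be told apart, and the part these markers have in the differences below was not tested.

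Promoters of HIF target genes carry the core of the hypoxia response element, and 4 promoters are printed to show where such cores lie in 4 genes of the list. Each is the 300 bases from 250 before to 50 after a RefSeq start site (GRCm38.p6). The search covered ACGTG and GCGTG on both strands, which on the other strand read CACGT and CACGC. All matches are in capitals. The palindrome CACGTG, also the E-box bound by factors such as Myc and Bhlhe40, holds a match on each strand and was counted as 2.
Ldha, lactate dehydrogenase A, chr7:46845554-46845853, plus strand: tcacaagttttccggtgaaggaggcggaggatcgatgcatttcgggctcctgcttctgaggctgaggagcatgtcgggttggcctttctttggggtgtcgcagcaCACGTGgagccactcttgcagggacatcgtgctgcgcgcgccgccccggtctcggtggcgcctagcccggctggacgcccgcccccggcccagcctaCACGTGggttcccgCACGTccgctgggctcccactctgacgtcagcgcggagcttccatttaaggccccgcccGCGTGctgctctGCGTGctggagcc
Pfkp, platelet-type phosphofructokinase, chr13:6648722-6649021, minus strand: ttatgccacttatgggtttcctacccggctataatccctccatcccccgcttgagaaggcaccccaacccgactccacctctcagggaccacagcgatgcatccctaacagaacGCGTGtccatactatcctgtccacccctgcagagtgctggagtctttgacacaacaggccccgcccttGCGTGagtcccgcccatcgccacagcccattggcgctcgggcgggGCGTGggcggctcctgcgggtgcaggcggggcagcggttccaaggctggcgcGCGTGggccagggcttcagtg
Hif1a, the HIF subunit, chr12:73907617-73907916, plus strand: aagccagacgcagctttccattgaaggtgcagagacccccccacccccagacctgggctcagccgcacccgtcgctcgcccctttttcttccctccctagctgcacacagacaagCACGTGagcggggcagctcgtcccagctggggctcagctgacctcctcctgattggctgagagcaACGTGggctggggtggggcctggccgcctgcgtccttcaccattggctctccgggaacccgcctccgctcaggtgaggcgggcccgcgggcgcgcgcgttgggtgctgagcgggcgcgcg
Bnip3, a mitophagy receptor and HIF target, chr7:138909457-138909756, minus strand: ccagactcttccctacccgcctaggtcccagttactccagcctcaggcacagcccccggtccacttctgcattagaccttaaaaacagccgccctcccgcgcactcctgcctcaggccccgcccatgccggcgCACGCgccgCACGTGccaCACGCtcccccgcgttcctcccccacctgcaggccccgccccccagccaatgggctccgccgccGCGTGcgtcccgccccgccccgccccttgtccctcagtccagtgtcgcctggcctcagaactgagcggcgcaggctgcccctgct
The printed Ldha window held 7 matches, among them 2 palindromes, and the Bnip3 window 5 with 1 palindrome. Another RefSeq window of Ldha, not printed, held 2 matches. In the Pfkp window there were 4 matches and in the Hif1a window 3 with 1 palindrome. At least 1 match was found in 32 of the 34 genes of the list that the RefSeq table holds, and none in Gpi1 and Tpi1. A match was held by 43.8% of all 32851 windows, and over the 8890 measured genes found there 67.8% did so in at least 1 window. A match is a description of letters and shows no binding.

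Transcripts of most of the 35 genes were at closely similar levels in the 2 libraries. Other genes of these pathways, given below, include larger differences, such as Fbp1 with a ratio of 0.576. The 23 more abundant genes of the list (mean of at least 1000 normalised reads) all lay between 0.880-fold (Pfkp) and 1.14-fold (Hif1a) of their WT level. Beyond counting error, Pfkp, Hk3, Ldha, Hk2, Pgk1, Pkm, Aldoa, Gapdh and Pgd were slightly lower in the Axl-/-Mertk-/- library, the last pair only with the deposited scaling, and Hif1a, Pfkfb3, Taldo1 and Gpi1 were slightly higher. In all, 22 of the 35 ratios (Axl-/-Mertk-/- over WT) were under 1 and 13 over 1. The 35 genes took 0.696% of all reads in the Axl-/-Mertk-/- library and 0.714% in the WT library.

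By a rule of size, a value at least 25% higher or at least 20% lower than in WT after 10 had been added to both, 0 of 35 genes were higher and 1, Adm, was lower in the Axl-/-Mertk-/- library. Among all measured genes 6.01% were higher and 5.87% lower by this rule. The median log2 ratio of the 35 genes was -0.036 (quartiles -0.091 and 0.049), beside -0.0047 over all measured genes (quartiles -0.11 and 0.097). Neither background is matched for depth, since 23 of the 35 genes averaged at least 1000 normalised reads, against 3508 of all 11795. A finer rule asked whether the exact 95% interval of the ratio, which covers counting error only, left out 1. It lay above 1 for 4 genes of the list, 11.4% of them, against 10.1% of all measured genes. It lay below 1 for 9, which is 25.7%, against 11.4% of all measured genes. Because deeper genes have narrower intervals, the same counts were taken over the genes that averaged at least 1000. There 4 of the 23 were above 1 (17.4%, against 15.8% of 3508 such genes) and 9 were below 1 (39.1%, against 19.8%). Scaling by median-of-ratios factors or by total reads, which moved the median of all genes by 0.015 and 0.0096 on the log2 scale, left 7 of the 23 below 1 (30.4%) where all such genes gave 16.3% and 17.6%.

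**Figure D1:**
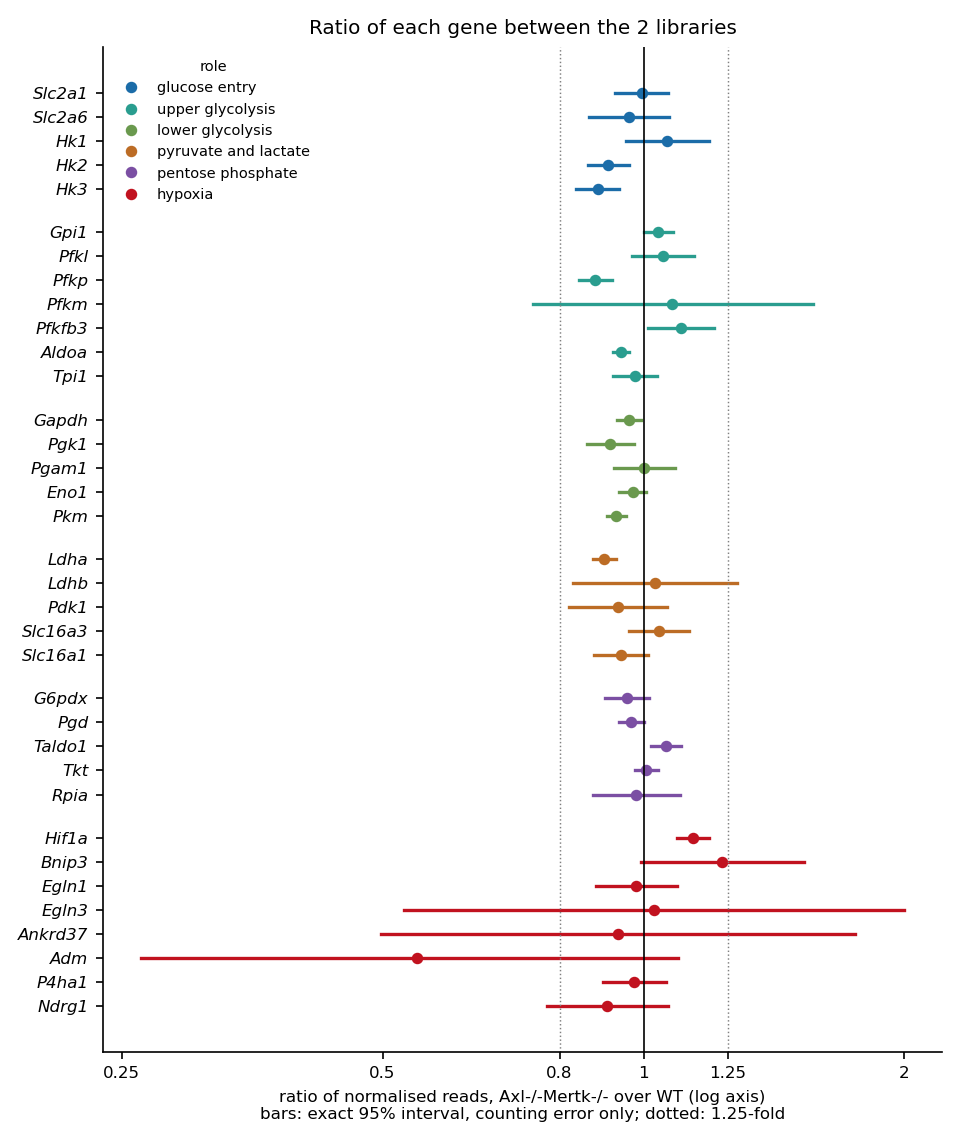
Ratio of normalised reads, Axl-/-Mertk-/- over WT, for each of the 35 genes by role, with exact 95% counting intervals as bars and 1 library per genotype. Hif1a lies above 1 and Pfkp, Hk3 and Ldha lie below 1 with their whole intervals, and the widest intervals belong to Adm, Egln3 and Ankrd37, which have few reads.

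**Figure D2:**
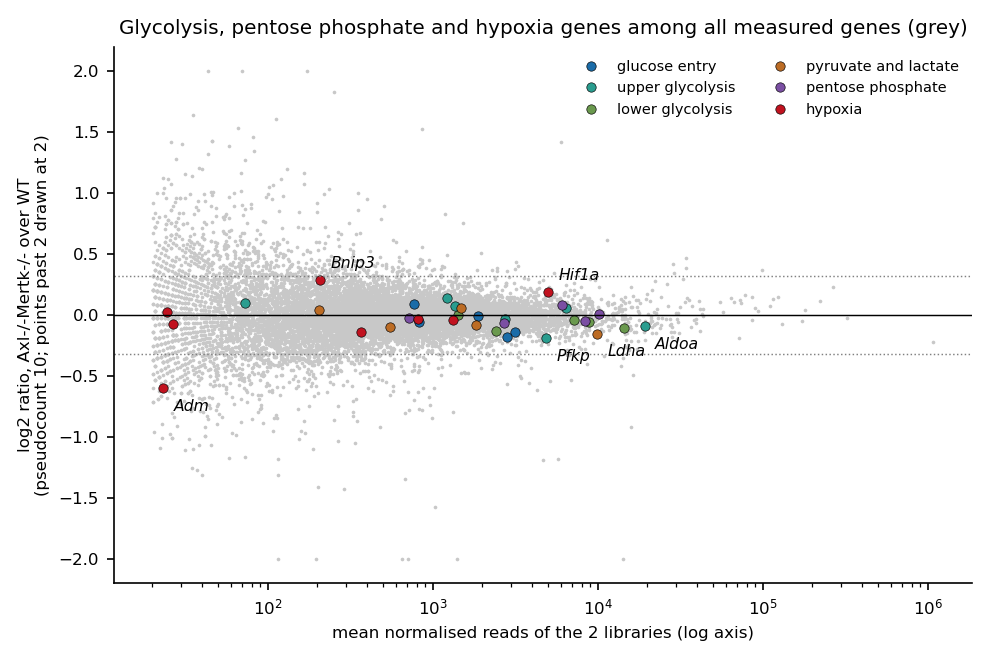
Log2 ratio (Axl-/-Mertk-/- over WT, pseudocount 10) against the mean of both libraries in normalised reads for all 11795 measured genes (grey) and the 35 genes (coloured). Apart from Adm, at -0.60, the genes of the list lie within the central 95% of all measured genes, from -0.47 to 0.50.

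Glucose entry holds the transporters and hexokinases. Slc2a1, the basal glucose transporter GLUT1, had 1872 normalised reads in Axl-/-Mertk-/- cells and 1881 in WT cells, a ratio of 0.995 (0.927 to 1.07), where bracketed ranges here and below are the counting intervals. Its direction turned to 0.008 and 0.003 on the log2 scale under the other scalings, so no side can be given. Slc2a6, a lysosomal hexose transporter of inflammatory macrophages, had 812 in Axl-/-Mertk-/- cells and 844 in WT cells, and its interval included 1 (ratio 0.963, 0.865 to 1.07). The hexokinases trap glucose as glucose 6-phosphate. Hk2, the inducible form on mitochondria, was at 3024 in Axl-/-Mertk-/- cells and 3322 in WT cells, with a ratio of 0.910 (0.862 to 0.961). Hk3, the form typical of myeloid cells, was at 2643 in Axl-/-Mertk-/- cells and 2986 in WT cells, with a ratio of 0.885 (0.836 to 0.938). Both were lower in Axl-/-Mertk-/- cells beyond counting error. Hk1, the widely expressed form, was at 799 in Axl-/-Mertk-/- cells and 751 in WT cells, with an interval that included 1 (ratio 1.06, 0.953 to 1.19). Over the 5 genes the pooled reads gave a ratio of 0.935 (0.906 to 0.965), with a median log2 ratio of -0.054.

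In the upper part of glycolysis, fructose 6-phosphate is made, phosphorylated and split. Pfkp, the platelet-type phosphofructokinase at the committed step, had 4580.0 normalised reads in Axl-/-Mertk-/- cells and 5206 in WT cells, and its ratio of 0.880 (0.842 to 0.919) was the lowest of the 23 abundant genes. The liver-type gene Pfkl was at 1402 in Axl-/-Mertk-/- cells and 1331 in WT cells (ratio 1.05, 0.970 to 1.14). The muscle-type gene Pfkm was near the lower end of the measured range, with 75.5 in Axl-/-Mertk-/- cells and 70.0 in WT cells (ratio 1.08, 0.745 to 1.57). For neither Pfkl nor Pfkm did the interval leave out 1. Pfkfb3 makes fructose 2,6-bisphosphate, the activator of phosphofructokinase. It was higher in Axl-/-Mertk-/- cells, at 1284 against 1162 in WT cells (ratio 1.11, 1.01 to 1.21). Gpi1, which isomerizes glucose 6-phosphate, was at 6525 in Axl-/-Mertk-/- cells and 6273 in WT cells, and its interval only just left out 1 (ratio 1.04, 1.001 to 1.08). Gpi1 lies on chromosome 7 at 34201330 to 34230336, 8.41 Mb from the targeted gene Axl, the only gene of the list within 20 Mb of a targeted gene. Aldoa, the aldolase that splits the sugar, was the most abundant of all 35 genes, with 18673 in Axl-/-Mertk-/- cells and 19815 in WT cells (ratio 0.942, 0.922 to 0.963). Tpi1, which interconverts the resulting triose phosphates, was at 2730.3 in Axl-/-Mertk-/- cells and 2790.2 in WT cells (ratio 0.979, 0.923 to 1.04). The median log2 ratio of the 7 genes was 0.057 and the pooled ratio 0.962 (0.947 to 0.978), which differ in sign. Aldoa gave 15819 of the 29880 reads of the group in Axl-/-Mertk-/- cells and 16419 of 30367 in WT cells.

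The lower part of glycolysis recovers ATP. Gapdh, the dehydrogenase that makes NADH, had 8635 normalised reads in Axl-/-Mertk-/- cells and 8972 in WT cells, a ratio of 0.962 (0.932 to 0.994). Pgk1, the first ATP-forming kinase, was at 2323 in Axl-/-Mertk-/- cells and 2537 in WT cells (ratio 0.916, 0.861 to 0.974). Pkm, pyruvate kinase and the second ATP-forming step, was at 13951 in Axl-/-Mertk-/- cells and 14990.2 in WT cells (ratio 0.931, 0.907 to 0.955). These 3 were lower in Axl-/-Mertk-/- cells beyond counting error, although Gapdh passed 1 with the upper bound of its interval under both other scalings. Pgam1, the mutase between them, was nearly equal, at 1425 in Axl-/-Mertk-/- cells and 1422 in WT cells (ratio 1.002, 0.924 to 1.09). Eno1, enolase, was at 7044 in Axl-/-Mertk-/- cells and 7247 in WT cells (ratio 0.972, 0.938 to 1.01). For the 5 genes together the pooled ratio was 0.949 (0.934 to 0.965) and the median log2 ratio -0.055.

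Of the genes that decide the fate of pyruvate, Ldha, whose enzyme reduces it to lactate, had 9407 normalised reads in Axl-/-Mertk-/- cells and 10440.4 in WT cells. The ratio of 0.901 (0.874 to 0.929) stood below 1 under each of the 3 scalings. Its partner Ldhb, the heart-type subunit, was far less abundant, at 208 in Axl-/-Mertk-/- cells and 202 in WT cells (ratio 1.03, 0.829 to 1.28). Pdk1, the kinase that shuts off pyruvate dehydrogenase, was at 531 in Axl-/-Mertk-/- cells and 568 in WT cells (ratio 0.934, 0.819 to 1.07). Lactate crosses the membrane through monocarboxylate transporters. The exporter gene Slc16a3 (MCT4) was at 1519 in Axl-/-Mertk-/- cells and 1458 in WT cells (ratio 1.04, 0.963 to 1.13), and Slc16a1 (MCT1) at 1766 in Axl-/-Mertk-/- cells and 1873 in WT cells (ratio 0.943, 0.878 to 1.01). The intervals of Ldhb, Pdk1, Slc16a3 and Slc16a1 all included 1. The pooled ratio of the group, 0.924 (0.9002 to 0.948), rests mainly on Ldha, and the median log2 ratio was -0.084.

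Pentose phosphate genes were abundant and nearly level between the libraries, with a pooled ratio of 1.001 (0.983 to 1.02) and a median log2 ratio of -0.027. In the oxidative branch, which makes NADPH, G6pdx (the first enzyme) was at 2645 normalised reads in Axl-/-Mertk-/- cells and 2764 in WT cells (ratio 0.957, 0.903 to 1.02). Pgd, the second NADPH-forming enzyme, was at 8271 in Axl-/-Mertk-/- cells and 8550.5 in WT cells. Its interval only just stayed below 1 (ratio 0.967, 0.936 to 0.99996) and included 1 under both other scalings. In the non-oxidative branch, which trades sugars with glycolysis, Taldo1 (transaldolase) was higher in Axl-/-Mertk-/- cells, at 6293 against 5927 in WT cells (ratio 1.06, 1.02 to 1.10). Tkt, transketolase of the same branch, was at 10200.0 in Axl-/-Mertk-/- cells and 10123 in WT cells (ratio 1.01, 0.978 to 1.04). Rpia, the ribose phosphate isomerase, was at 714 in Axl-/-Mertk-/- cells and 728 in WT cells (ratio 0.981, 0.875 to 1.10). Thus Taldo1 and Pgd lay on opposite sides of 1, and the intervals of the other 3 genes included it.

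Among the hypoxia genes, the transcript of Hif1a itself differed most clearly. Hif1a had 5324 normalised reads in Axl-/-Mertk-/- cells and 4666 in WT cells, a ratio of 1.14 (1.09 to 1.19), the highest of the 23 abundant genes. HIF activity is set mostly by protein stability, which these data do not measure. Bnip3, a mitophagy receptor, had a higher ratio on fewer reads, at 229 in Axl-/-Mertk-/- cells and 186 in WT cells (ratio 1.23, 0.992 to 1.53), and its interval left out 1 only with median-of-ratios factors. Egln1, the main oxygen-sensing prolyl hydroxylase, was at 807 in Axl-/-Mertk-/- cells and 823 in WT cells (ratio 0.981, 0.881 to 1.09). Egln3, the hypoxia-induced hydroxylase, was close to the lower limit of measurement, at 24.8 in Axl-/-Mertk-/- cells and 24.1 in WT cells (ratio 1.03, 0.530 to 1.997). P4ha1, a collagen prolyl hydroxylase subunit, was at 1316 in Axl-/-Mertk-/- cells and 1349 in WT cells (ratio 0.975, 0.897 to 1.06). Ndrg1, a stress-responsive gene, was at 353 in Axl-/-Mertk-/- cells and 389 in WT cells (ratio 0.908, 0.773 to 1.07). The intervals of Egln1, Egln3, P4ha1 and Ndrg1 all included 1. Ankrd37, a small HIF target, was at 26.0 in Axl-/-Mertk-/- cells and 27.8 in WT cells (ratio 0.936, 0.497 to 1.76). Adm, which encodes the vasodilator adrenomedullin, had 14 reads in Axl-/-Mertk-/- cells and 25 in WT cells, which is 16.5 normalised reads in Axl-/-Mertk-/- cells and 30.2 in WT cells. Its ratio of 0.548 (0.263 to 1.10) passed the rule of size, but the interval included 1, so the difference was not detectable at this depth. The pooled ratio of the 8 genes, 1.08 (1.04 to 1.12), lay above 1 while their median log2 ratio was -0.031, since Hif1a gave 4510 of the 6859 reads in Axl-/-Mertk-/- cells and 3866 of 6210 in WT cells.

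Levels between genes were compared per kilobase of the longest coding transcript. Aldoa led with 12055 normalised reads per kilobase in Axl-/-Mertk-/- cells and 12792 in WT cells, which put it at rank 55 of the 11253 measured genes with a coding transcript. Next came 3 neighbours of similar level. Gapdh was at 6081 per kilobase in Axl-/-Mertk-/- cells and 6318 in WT cells (rank 150), Pkm at 5737 in Axl-/-Mertk-/- cells and 6164 in WT cells (rank 156) and Ldha at 5183 in Axl-/-Mertk-/- cells and 5752 in WT cells (rank 179). The pentose phosphate gene Taldo1 followed at 4620.3 per kilobase in Axl-/-Mertk-/- cells and 4352 in WT cells, above Pgd, Eno1 and Tkt. The levels of these 3 were 3729, 3475 and 3165 per kilobase in Axl-/-Mertk-/- cells and 3855, 3575 and 3141 in WT cells. Entry and control steps were much lower. Slc2a1 had 574 per kilobase in Axl-/-Mertk-/- cells and 577 in WT cells, the 3 hexokinases summed to 1556 in Axl-/-Mertk-/- cells and 1706 in WT cells, and the 3 phosphofructokinases to 1507 in Axl-/-Mertk-/- cells and 1637 in WT cells. At the bottom stood Pfkm, Ankrd37, Adm and Egln3, the last at 9.31 per kilobase in Axl-/-Mertk-/- cells and 9.07 in WT cells. The lengths are taken from the annotation and not from the isoforms these cells use, so levels close to each other have no firm order.

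**Figure D3:**
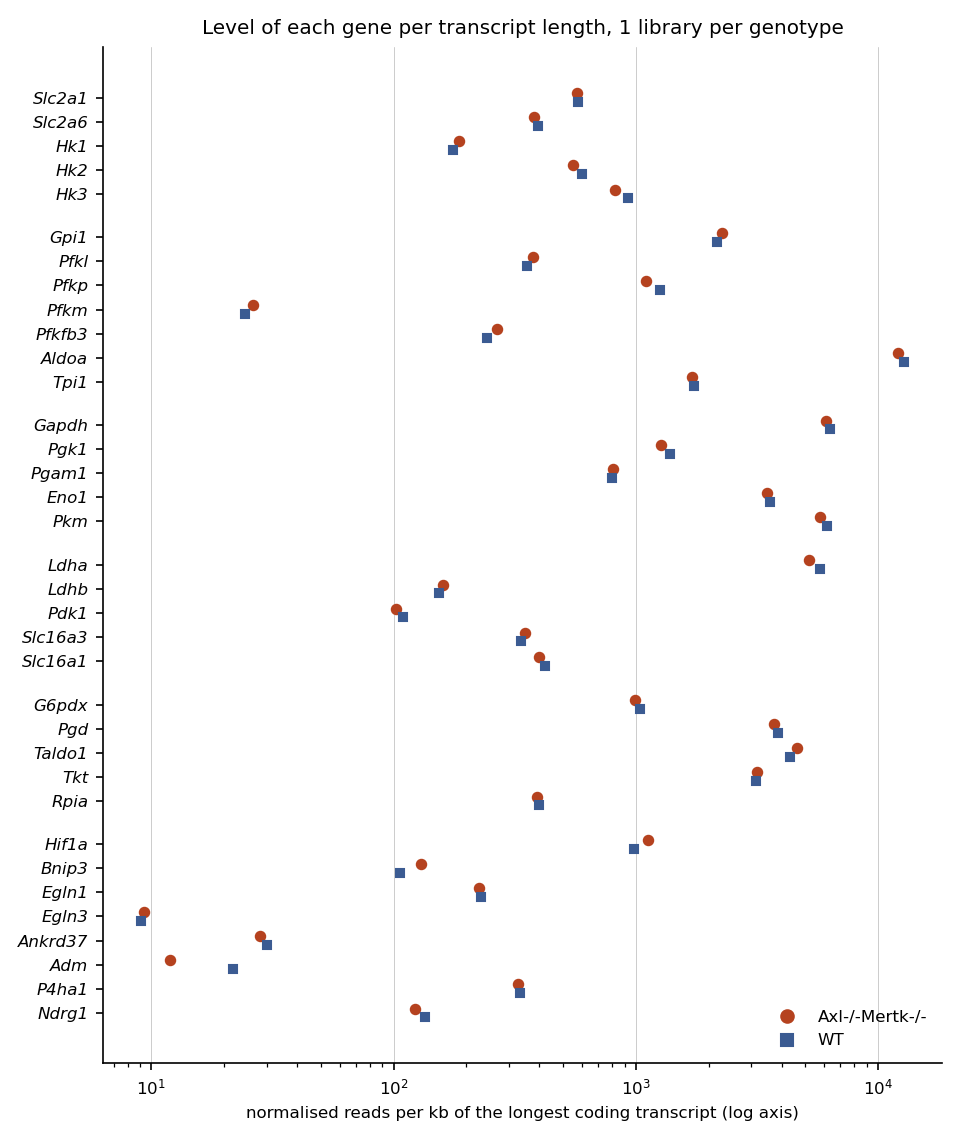
Normalised reads per kilobase of the longest coding transcript (log axis) for each of the 35 genes, Axl-/-Mertk-/- and WT side by side, 1 library each. Levels run from 9.31 in Axl-/-Mertk-/- cells and 9.07 in WT cells for Egln3 to 12055 and 12792 in the same libraries for Aldoa, and the symbols of the 2 libraries nearly coincide for most genes.

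Within families, the same isoform led in both libraries, and some shares differed beyond counting error. Among hexokinases, Hk3, Hk2 and Hk1 held 52.8%, 35.2% and 12.0% of the level per kilobase in Axl-/-Mertk-/- cells, and 54.4%, 35.3% and 10.3% in WT cells. Of hexokinase reads, Hk1 gave 12.4% in Axl-/-Mertk-/- cells (exact binomial 95% interval, 11.5% to 13.3%) and 10.6% in WT cells (9.86% to 11.5%). By reads not divided by length Hk2 led instead, with 46.8% in Axl-/-Mertk-/- cells and 47.1% in WT cells. Pfkp was the main phosphofructokinase in both. It gave 75.6% of the reads of the 3 genes in Axl-/-Mertk-/- cells (74.4% to 76.8%) and 78.8% in WT cells (77.7% to 79.9%), and as for Hk1 the intervals did not overlap. Per kilobase, Pfkp held 73.3% in Axl-/-Mertk-/- cells and 76.7% in WT cells. Ldha made up 97.0% of lactate dehydrogenase per kilobase in Axl-/-Mertk-/- cells and 97.4% in WT cells. The HIF alpha subunits differed in share too. Hif1a gave 71.6% of the reads of Hif1a and Epas1 in Axl-/-Mertk-/- cells (70.4% to 72.7%) and 68.6% in WT cells (67.4% to 69.8%). Of the PFKFB genes, Pfkfb4 and not Pfkfb3 was the most abundant per kilobase, with 73.3% in Axl-/-Mertk-/- cells and 74.6% in WT cells. Of their reads Pfkfb3 gave 23.4% in Axl-/-Mertk-/- cells (22.2% to 24.7%) and 20.9% in WT cells (19.7% to 22.1%). Among enolases, Eno1 held 97.1% per kilobase in Axl-/-Mertk-/- cells and 97.8% in WT cells, and the minor gene Eno3 gave 1.83% of reads in Axl-/-Mertk-/- cells (1.51% to 2.20%) and 1.14% in WT cells (0.890% to 1.44%). Of the BNIP3 pair, Bnip3l held 88.7% per kilobase in Axl-/-Mertk-/- cells and 91.2% in WT cells. By reads its share was 93.6% in Axl-/-Mertk-/- cells (92.7% to 94.4%) and 95.1% in WT cells (94.2% to 95.8%), and these intervals overlapped. The read-share intervals of Ldha, Eno1 and Pfkfb4 overlapped between the libraries too.

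**Figure D4:**
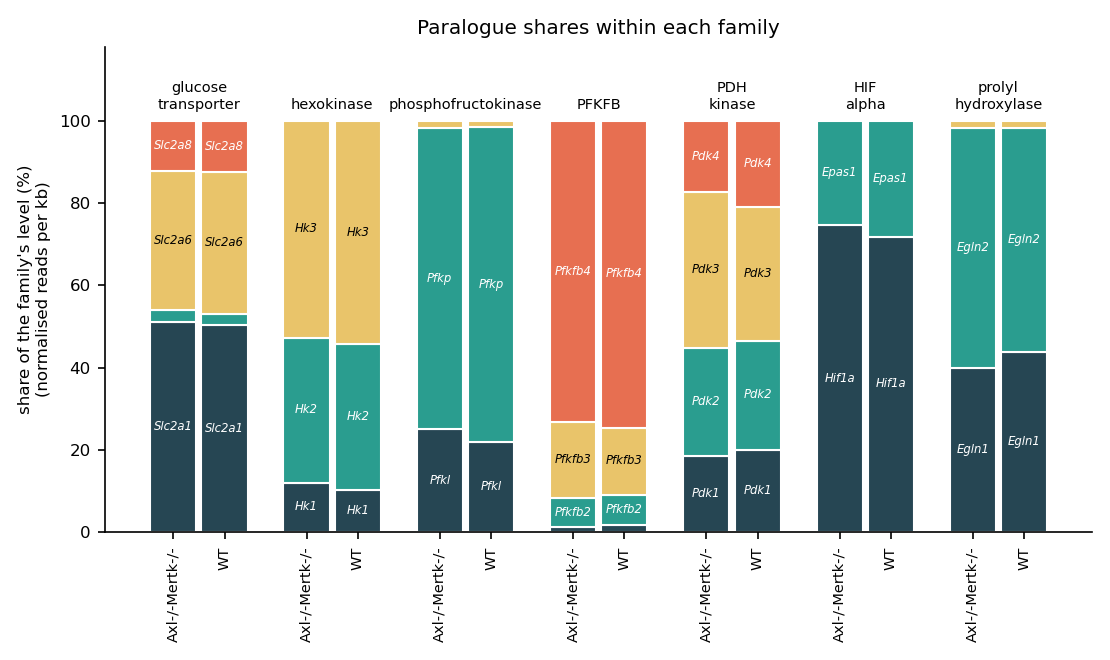
Share of each isoform within its gene family, in percent of normalised reads per kilobase, with Axl-/-Mertk-/- left of WT in each pair of bars and 1 library each. Hk3 and Pfkp lead their families in both libraries, and Pfkp is 73.3% in Axl-/-Mertk-/- cells and 76.7% in WT cells.

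Several of these genes have near-identical copies, between which the authors' counting may have split reads. Such copies (at least 90% identity over at least 100 bases of the coding sequence) were found for 17 of the 35 genes, 248 copies in all, of which 223 were pseudogenes. Only 125 of the 248 were in the table, so the reads of the others are unknown. Gapdh alone had 181, of which 86 were in the table. The Gapdh pseudogenes in the table took 311 reads in Axl-/-Mertk-/- cells and 276 in WT cells, and adding them gave a Gapdh ratio of 0.967 (0.937 to 0.999). With every matching gene in the table added, functional ones included, the interval held 1, at 0.987 (0.958 to 1.02). Most of the reads added there came from the protein-coding gene Peli2. It gave 621 of 954 in Axl-/-Mertk-/- cells and 469 of 757 in WT cells, and how many of these stem from Gapdh was not tested. For Ldha, Pkm, Pgk1, Aldoa and Hif1a the copies in the table took at most 12 reads in either library. Since the strand setting of the counting is not given, overlaps between opposite strands are uncertain too. They include 748 bases between Pfkp and Pitrm1, 741 between Gpi1 and Gm26762, 504 between Bnip3 and Gm45507, 419 between Ndrg1 and Gm17035, and 418 between G6pdx and Ikbkg. Gm26762 had 15 reads in Axl-/-Mertk-/- cells and 10 in WT cells, and Gm17035 had 0 in both. Pitrm1 had 744 reads in Axl-/-Mertk-/- cells and 731 in WT cells, and Ikbkg had 820 in Axl-/-Mertk-/- cells and 840 in WT cells.

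The other genes of the same pathways were taken from 6 wider lists of 126 names, of which 124 were in the table and 99 were measured. By the rule of size 8 of the 99 were higher (8.08%, beside 6.01% of all measured genes) and 10 lower (10.1%, beside 5.87%) in the Axl-/-Mertk-/- library, and their median log2 ratio was -0.017. Among 13 other glycolysis genes 1 was higher (7.69%) and 3 were lower (23.1%). The counting interval lay above 1 for 1 of the 13 (7.69%, beside 10.1% of all measured genes) and below 1 for 0 (beside 11.4%). The intervals of all 3 lower genes thus included 1. Eno3, the muscle enolase, was the higher one, at 132 normalised reads in Axl-/-Mertk-/- cells and 84.5 in WT cells (ratio 1.56, 1.15 to 2.14). Eno2, the neuronal enolase, was among the lower ones at 53.1 in Axl-/-Mertk-/- cells and 76.03 in WT cells (ratio 0.699, 0.466 to 1.04), with an interval that included 1. The most abundant of the list was Pfkfb4, at 3714 in Axl-/-Mertk-/- cells and 3866 in WT cells (ratio 0.961, 0.914 to 1.01). Pfkfb2, of the same bifunctional family, was at 456 in Axl-/-Mertk-/- cells and 484 in WT cells (ratio 0.942, 0.817 to 1.09). Bpgm, the bisphosphoglycerate mutase, was at 155 in Axl-/-Mertk-/- cells and 164 in WT cells (ratio 0.942, 0.735 to 1.21).

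Of 18 other pyruvate and lactate genes 4 were higher in the Axl-/-Mertk-/- library by the rule of size (22.2%, beside 6.01% of all measured genes) and 0 were lower. Mpc1, a subunit of the mitochondrial pyruvate carrier, was at 286 normalised reads in Axl-/-Mertk-/- cells and 221 in WT cells (ratio 1.29, 1.06 to 1.58), while Mpc2, the other subunit, was at 484 in Axl-/-Mertk-/- cells and 497 in WT cells (ratio 0.973, 0.847 to 1.12). Pdhx, a structural part of the pyruvate dehydrogenase complex, was at 323 in Axl-/-Mertk-/- cells and 243 in WT cells (ratio 1.33, 1.11 to 1.61). Of the catalytic subunits of that complex, Pdha1, Pdhb, Dlat and Dld had ratios of 1.07, 0.954, 1.04 and 0.937, all with intervals that included 1. Emb, embigin, is a partner protein of monocarboxylate transporters and was at 2772 in Axl-/-Mertk-/- cells and 2153 in WT cells (ratio 1.29, 1.21 to 1.37). The fourth, Ldhd, had 34 reads in Axl-/-Mertk-/- cells and 15 in WT cells, and is named here only to complete the count. Bsg, basigin, the other such partner and the most abundant gene of the list, was at 3655 in Axl-/-Mertk-/- cells and 3674 in WT cells (ratio 0.995, 0.946 to 1.05). Pdk4, a kinase that inhibits pyruvate dehydrogenase, was at 336 in Axl-/-Mertk-/- cells and 399 in WT cells (ratio 0.842, 0.716 to 0.990), and Pdk3, of the same family, at 444 in Axl-/-Mertk-/- cells and 378 in WT cells (ratio 1.17, 1.01 to 1.37).

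Of 8 other genes of the pentose phosphate pathway and NADPH supply, 0 were higher and 1 lower (12.5%), beside 6.01% and 5.87% of all measured genes, so a single gene makes up the share. Me1, the cytosolic malic enzyme, a source of NADPH, was at 96.8 normalised reads in Axl-/-Mertk-/- cells and 151 in WT cells (ratio 0.642, 0.480 to 0.855). The most abundant, Idh1, which makes NADPH from isocitrate, was at 5102 in Axl-/-Mertk-/- cells and 5163 in WT cells (ratio 0.988, 0.947 to 1.03). Shpk (sedoheptulose kinase), Prps1 (phosphoribosyl pyrophosphate synthesis) and H6pd (the dehydrogenase of the endoplasmic reticulum) had ratios of 1.17 (0.885 to 1.54), 0.919 (0.843 to 1.002) and 1.05 (0.958 to 1.15). Among 16 genes of gluconeogenesis and glycogen 0 were higher and 1 lower (6.25%), near the 5.87% of all measured genes. That gene, Fbp1, encodes the fructose bisphosphatase that opposes phosphofructokinase, and was at 973 in Axl-/-Mertk-/- cells and 1689.6 in WT cells, a ratio of 0.576 (0.528 to 0.628). No gene of the 35 had so low a ratio except Adm. Pygl, the liver-type glycogen phosphorylase and the most abundant of the list, was at 2944 in Axl-/-Mertk-/- cells and 2758 in WT cells (ratio 1.07, 1.01 to 1.13). Pck2, of gluconeogenesis, had a ratio of 0.887 (0.747 to 1.05) and Ugp2, of glycogen synthesis, one of 0.905 (0.847 to 0.967).

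Regulators of HIF were nearly level between the libraries. Of 14 measured, 0 were higher and 1, Arnt2, was lower by the rule of size (7.14%, beside 5.87% of all measured genes), on 13 reads in Axl-/-Mertk-/- cells and 22 in WT cells. Epas1, the second HIF alpha gene, was at 2114 normalised reads in Axl-/-Mertk-/- cells and 2132 in WT cells (ratio 0.991, 0.928 to 1.06). Arnt, their common partner subunit, was at 1477 in Axl-/-Mertk-/- cells and 1560.5 in WT cells (ratio 0.946, 0.875 to 1.02). Egln2, a further prolyl hydroxylase, was at 696 in Axl-/-Mertk-/- cells and 599.8 in WT cells (ratio 1.16, 1.03 to 1.31), and it lies 1.37 Mb from Axl. The coactivator Ep300 had a ratio of 1.06 (0.993 to 1.14) and the ubiquitin ligase gene Siah2 one of 0.959 (0.839 to 1.09).

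Other hypoxia targets went both ways, with quartiles of -0.19 and 0.19 on the log2 scale. Of 30 measured, 3 were higher (10%, beside 6.01% of all measured genes) and 4 lower (13.3%, beside 5.87%) by the rule of size, and the counting interval lay above 1 for 4 (13.3%, beside 10.1% of all measured genes) and below 1 for 10 (33.3%, beside 11.4%). Vegfa, the vascular growth factor, was higher, at 3171 normalised reads in Axl-/-Mertk-/- cells and 2470.4 in WT cells (ratio 1.28, 1.21 to 1.36). Fam162a, a mitochondrial HIF target, was at 211 in Axl-/-Mertk-/- cells and 275 in WT cells (ratio 0.768, 0.628 to 0.938), and Car9, a carbonic anhydrase, at 98.0 in Axl-/-Mertk-/- cells and 74.8 in WT cells (ratio 1.31, 0.931 to 1.85). The transcription factor gene Bhlhe40 was the most abundant, at 16283 in Axl-/-Mertk-/- cells and 17966 in WT cells (ratio 0.906, 0.885 to 0.928). Tfrc, the transferrin receptor gene, named after its values had been seen, was at 1257 in Axl-/-Mertk-/- cells and 1601 in WT cells (ratio 0.785, 0.723 to 0.852). The pooled ratio of the list was 0.898 (0.888 to 0.909) and the median log2 ratio -0.024. Hif1a itself had stood at 1.14-fold, whereas Ldha and Hk2 stood below 1 and Vegfa above it.

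**Figure D5:**
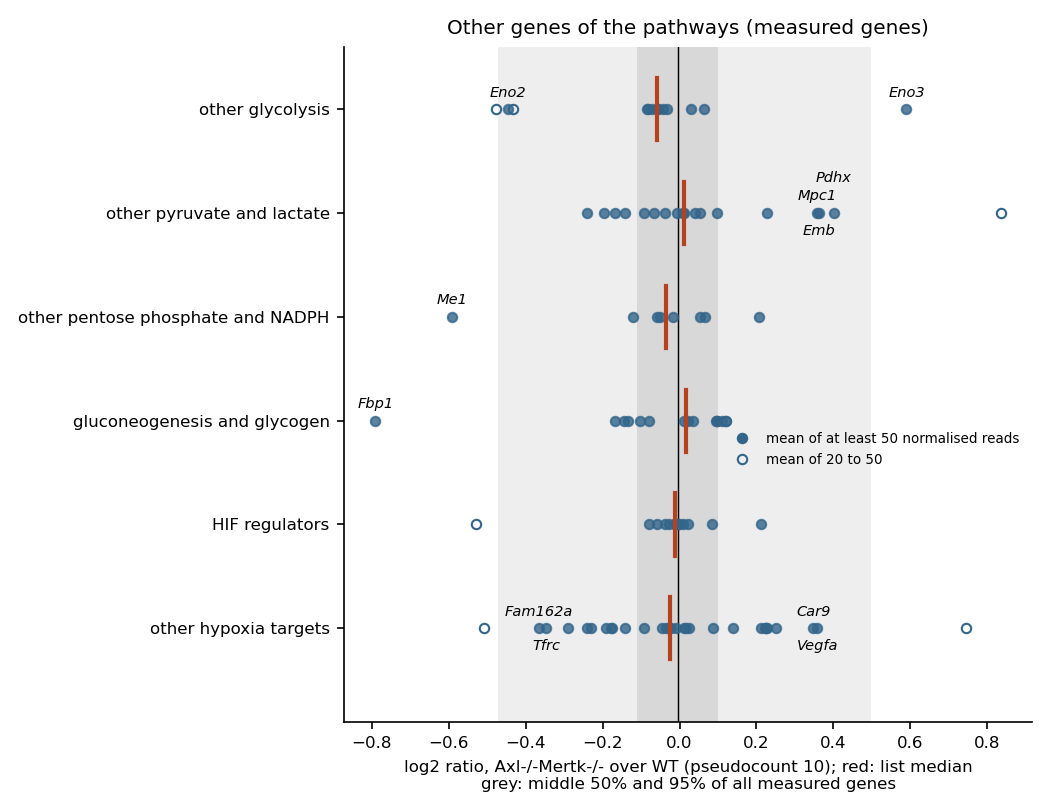
Log2 ratio (Axl-/-Mertk-/- over WT, pseudocount 10) of the measured genes of the 6 wider lists apart from 2 that are not shown, with the list medians as red bars and genes past the rule of size named where their mean was at least 50 normalised reads. The medians lie near 0, Fbp1 is the lowest named gene and Eno3 the highest.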

How the data were processed

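RNA was poly(A)-selected and made into strand-specific libraries by dUTP marking, per the labels' protocols. The deposited values are a signal, which the authors made by dividing read counts per gene by 1 size factor per library. The submitters' processing notes name TopHat2, DESeq2 and the build GRCm38. For the counting program, its strand setting and all versions nothing is stated there (not given in the sources used here). In each library 100% of the values were whole multiples of the smallest one (tolerance 1e-06), so whole reads could be recovered, with size factors of 0.847 for Axl-/-Mertk-/- and 0.829 for WT. The table has 1585 genes without a symbol. The limit that 0 reads allow, 3 reads, equals 3.54 normalised reads for Axl-/-Mertk-/- and 3.62 for WT.

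The labels' genotype gave the groups, and their sample number the columns. With 1 library per genotype no test of the genotypes exists, and the quasi-likelihood fit of edgeR could not be made. Ratios are Axl-/-Mertk-/- over WT without a pseudocount, with exact 95% Clopper-Pearson intervals from the recovered reads that cover counting error only (the labels name no molecular identifiers, and reads are then not independent molecules). Pooled ratios come from summed reads. Log2 ratios and the rule of size (at least 25% higher or 20% lower) use a pseudocount of 10, which understates low genes. The 35 genes, the wider and the marker lists were chosen with earlier results of these data known, and the length used per kilobase after alternatives had been seen. All 35 genes are given. From each wider list the most abundant gene was named and the 4 with the largest ratios in either direction at a mean of at least 50, and some genes that this rule or the marker lists hold are not reported here, though list counts, medians and sums include them. The choice of Arnt2, Ldhd, Tfrc, Bnip3l, Mpc2, Pdk3, Peli2, the subunits of pyruvate dehydrogenase other than Pdhx and the overlapping genes came after seeing values.

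Positions came from GENCODE for GRCm38, by Ensembl identifier (99.2% of measured genes matched), and promoters from RefSeq. Copies were searched with BLAST+ 2.17.0. Computations, tested on simulated data, ran in Python 3.11.15 (SciPy 1.17.1, pandas 2.3.3, numpy 2.4.6), and plots were drawn with matplotlib 3.10.9. The alternatives were other pseudocounts, minimum means, scalings, thresholds and lengths, copies added and genes near the targeted loci left out.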

Additional observations from a re-analysis of the deposited data

How the results depend on the processing

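Under the pseudocounts, scalings and added copies tried, all 175 recomputed ratios of single genes stayed within their own counting intervals. So did all 12 pooled group ratios. The 7 recomputed medians moved by less than 0.05 on the log2 scale. That limit is wider than the main median of -0.036, so staying within it does not show that the sign held. The other scalings moved the median of all genes by only 0.015 and 0.0096. The single lower gene by size, Adm, was lost with a pseudocount of 50 and with a minimum mean of 100, which both left 0. When the counting interval replaced the rule of size there were 4 higher and 9 lower genes, and 4 and 9 also among genes averaging at least 1000, a background added after seeing the data. Of these 13, Gapdh and Pgd lost their place under both other scalings. Gapdh also lost it with all copies in the table added, Peli2 included, but not with its pseudogenes there alone. In the wider lists, a pseudocount of 50 left 0 lower genes in other glycolysis, 0 lower HIF regulators and 2 lower among other hypoxia targets, and a minimum mean of 100 left 0 lower in other glycolysis, 0 lower HIF regulators and 1 higher among other hypoxia targets. Isoform shares moved with length. In Axl-/-Mertk-/- cells and WT cells Hk2 held 38.4% and 38.2% per kilobase of all exons merged (chosen after seeing the data) and 46.8% and 47.1% of undivided reads, Pfkp 59.5% and 63.8% against 75.6% and 78.8%, and Ldha 95.6% and 96.1% against 97.8% and 98.1%. No paired analysis was possible because each genotype has 1 library and no test was run. Depth limits Adm, Egln3, Ankrd37 and Pfkm, and a spread between animals cannot be given.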
